A study of Mus musculus with 5 samples.

Results

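The proteasome genes of the embryonic mouse lens were described across control and N-myc knockout libraries. They were all rows of the count table whose symbol starts with Psma to Psmg followed by a digit, without the immunoproteasome subunits Psmb8, Psmb9 and Psmb10. This gave 45 of the 12370 gene symbols, and all 45 passed the filter on low counts, among 12035 genes tested. RNA was taken from lenses at embryonic day 14 in 3 control and 2 knockout libraries. Controls were Cre-negative embryos with both N-myc alleles flanked by loxP sites (N-mycloxP/loxP), and per the labels the control group also took in N-mycloxP/loxP;c-mycloxP/loxP embryos, with no statement of which library had which genotype. Knockout embryos carried the same N-myc alleles and 1 copy of Mlr10-Cre, a transgene built on an alpha A-crystallin promoter with an added Pax6 binding site that drives Cre in lens epithelium and fibres. No control carried the transgene, so its own effects and those of the deletion cannot be told apart. Lysates of single animals' lenses were pooled before RNA purification, in pools of a size the labels do not state. Each library is described as a biological replicate, so p-values here reflect how far such pools differ.

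The proteasome is the protease that degrades proteins tagged with ubiquitin. Its core particle is a barrel of outer rings of alpha subunits (Psma) and inner rings of beta subunits (Psmb), of which Psmb5, Psmb6 and Psmb7 carry the active sites. A regulatory particle caps the barrel: its base holds a ring of ATPases (Psmc) that unfold the substrate, and its lid (most Psmd genes) removes the ubiquitin chain. Activators (Psme) can replace that cap, Psmf1 can inhibit the core, and dedicated chaperones (Psmg, with Psmd5, Psmd9 and Psmd10 for the base) assist assembly. In the lens the ubiquitin system is known for turning over regulators of the cell cycle and of fibre differentiation.

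Mycn, the deleted gene, was read 2066, 1955 and 1848 times in the controls (replicates 1 to 3) and 801 and 1141 times in the knockouts (replicates 1 and 2). It was 2.16-fold lower (log2 -1.11, SE 0.15, edgeR adjusted p = 0.0097), and its adjusted p was 0.056 without control replicate 2. Library totals lay between 13162384 and 13746416 counts. Lens markers (9 genes) summed to between 83610 and 104872 CPM (read counts scaled to a common library size, with totals adjusted by the TMM method) in the controls and to 78400 and 91617 CPM in knockout replicates 1 and 2. Crystallins made up most of that sum, and 2 of the 9 markers fell, the beaded filament gene Bfsp1, from 1301, 1839 and 2045 CPM to 469.0 and 658.0 CPM (log2 -1.62, SE 0.22, adjusted p = 0.0097), and the water channel gene Mip (log2 -0.48, SE 0.13, adjusted p = 0.044). Markers of neighbouring tissues were also detected. The 8 markers of periocular mesenchyme summed to 574.5 to 844.0 CPM in the controls, 2354 CPM in knockout replicate 1 and 716.4 CPM in knockout replicate 2, and 2 of them rose. Pdgfra, at 426.0 to 462.7 CPM, made up most of each control sum and was at 532.3 and 442.7 CPM in the knockouts. Col1a1, which did not pass, was at 33.6 to 90.5 CPM in the controls and at 499.8 and 59.2 CPM in the knockouts. Retina markers (8 genes, of which 7 rose) stood at 69.2 to 71.4 CPM in the controls and at 110.1 and 213.1 CPM in the knockouts, and skeletal muscle markers (5 genes) at 9.64 to 45.1 CPM in the controls and at 327.3 and 12.1 CPM. Sox2, which did not pass, gave 37.1 to 39.5 CPM of the retina sums in the controls and 39.7 and 45.2 CPM in the knockouts. The 6 endothelial markers (187.7 to 236.9 CPM in the controls, 194.2 and 202.6 CPM in the knockouts) stayed within the control range. Of the blood cell lists, 5 red cell markers summed to 68.7 to 102.8 CPM in the controls and to 74.6 and 85.6 CPM in the knockouts, with Hba-a1 and Hbb-bt at 0 in all libraries, and 3 leukocyte markers, of which 1 rose, to 12.5 to 16.4 CPM and to 22.8 and 24.5 CPM. The part of these cells in the results below was not tested. In RNA from whole lenses, fewer cells of a type and less RNA per cell cannot be told apart.

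Proteasome transcripts were slightly lower in the knockout lenses. Of the 45 genes, 13 fell and 0 rose (edgeR quasi-likelihood test, adjusted p under 0.05 over all genes tested), which is 28.9% of them, where 8.51% of all tested genes were called lower and 7.98% higher. A fold change below 0 was found for 39 of the 45, against 49.8% of all tested genes. The falls were small, from 1.23-fold (Psme3) to 1.48-fold (Psmd14). The median log2 fold change was -0.36 over the 45 genes and 0.00 over all tested genes. Another 10 members had an adjusted p between 0.05 and 0.1, a band for which the share of all tested genes was not counted. Scaled by library totals alone, 5 members fell (5.29% of all tested genes were lower and 12.6% higher, 637 and 1511 genes against 1024 and 960 with TMM), and 35 lay below 0, against 39.9% of all. None of the 45 rose with DESeq2 or limma-voom either, and 0 had a fold change above 0 with an unadjusted edgeR p under 0.05. DESeq2 called 16 lower (9.69% of all genes it tested) and limma-voom 10 (7.56%). With an unadjusted edgeR p under 0.05, 24 members were lower, against 17.6% of all tested genes. Summed over the 45 genes, proteasome transcripts came to 3099, 3526 and 3425 CPM in the controls and to 2522 and 2821 CPM in the knockouts, so both knockouts lay below each control.

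Values per library are given here in the order of the replicate numbers. The libraries of a group were not alike. Relative to the mean of the controls, the median of the 45 genes was -0.15, 0.09 and 0.03 on the log2 scale in control replicates 1 to 3, with -0.42 and -0.18 for the 2 knockouts. Control replicate 1 was the lowest control for 35 of the 45 genes, and knockout replicate 1 was below knockout replicate 2 for 38. For 29 genes both knockouts lay below every control (27% of all tested genes did), and for 2, Psme2b and Psmc3ip, both lay above (25.5% of all tested genes). The number of calls depended on single libraries. Without control replicate 2, edgeR called 0 members lower, as it did without control replicate 3, and in these fits few genes of any kind were called lower (0.142% and 0.875% of all tested genes). At an unadjusted p under 0.05, 16 and 18 members were then lower, against 12.6% and 12.5% of all tested genes. Without knockout replicate 1, 1 member was called lower (0.937% of all tested genes). Without control replicate 1 or without knockout replicate 2, 18 members were (7.8% and 10.7% of all tested genes). The median log2 fold change was -0.19 without knockout replicate 1, the library with the highest mesenchyme and muscle markers, and lay between -0.29 and -0.43 when any other library was left out.

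**Figure D1:**
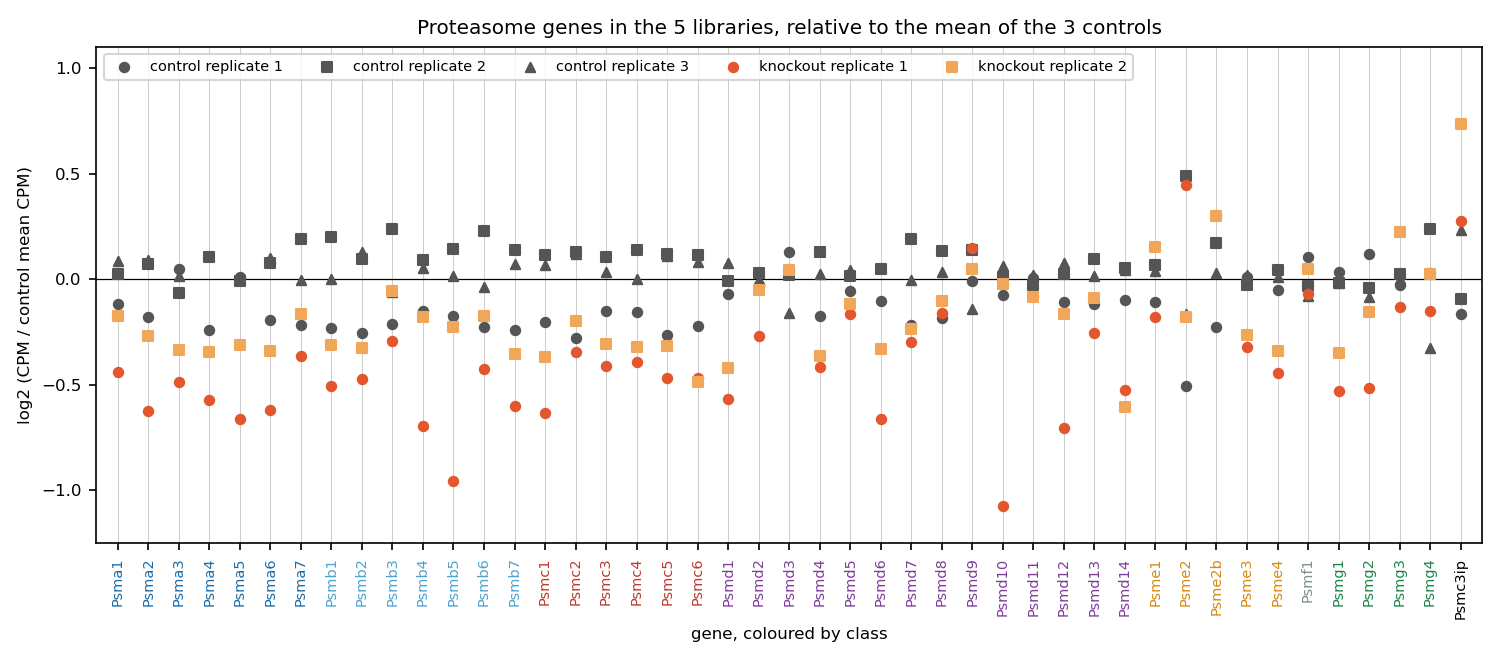
Level of each of the 45 proteasome genes in the 5 libraries, as log2 of its CPM over the mean CPM of the 3 controls (vertical axis), with genes coloured by class along the horizontal axis. Grey symbols are controls, red circles knockout replicate 1 and orange squares knockout replicate 2. Most knockout symbols lie below 0, the red circle below the orange square for 38 genes, and control replicate 1 (grey circles) is often the lowest control.

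Fold changes in these libraries followed the GC content of the transcripts, and those of the proteasome genes did so too. Across genes, which are not independent replicates and here share the 5 libraries, the rank correlation (Spearman's rho) of fold change with GC content was 0.46 over 11804 tested genes and 0.46 over the 45 proteasome genes. Among tested genes with under 45% GC the median log2 fold change was -0.23 and 19.7% were called lower, while among those with 55% GC or more it was 0.23 and 2.14% were called lower. Proteasome transcripts had a median GC content of 49.7%, against 50.3% for all tested genes, and a median length of 1430 bases, against 3078. The rank correlation of fold change with length was 0.18 over the 11804 genes and -0.045 over the 45 members. The bins that follow match GC content only, not length. Within bins of like GC content, the members lay below the median of all genes of the bin in 10 of 10 cases (under 45%), 12 of 15 (45% to 50%), 12 of 14 (50% to 55%) and 6 of 6 (55% and over), 40 of 45 in all. After a trend on length and GC content was taken out of each library (below, the trend removed), 7 members fell and 1 rose, against 6.1% lower and 3.81% higher of all tested genes. The median of the members was then -0.14 against 0.02 for all genes, and 34 of the 45 lay below 0, against 47.3% of all tested genes. The 7 were Psmc1, Psmc3, Psmc4, Psmd1, Psmd4, Psme3 and Psme4, all among the 13 called without this step, and the 1 that rose was Psme2b. What part GC content has in the falls was not tested.

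**Figure D2:**
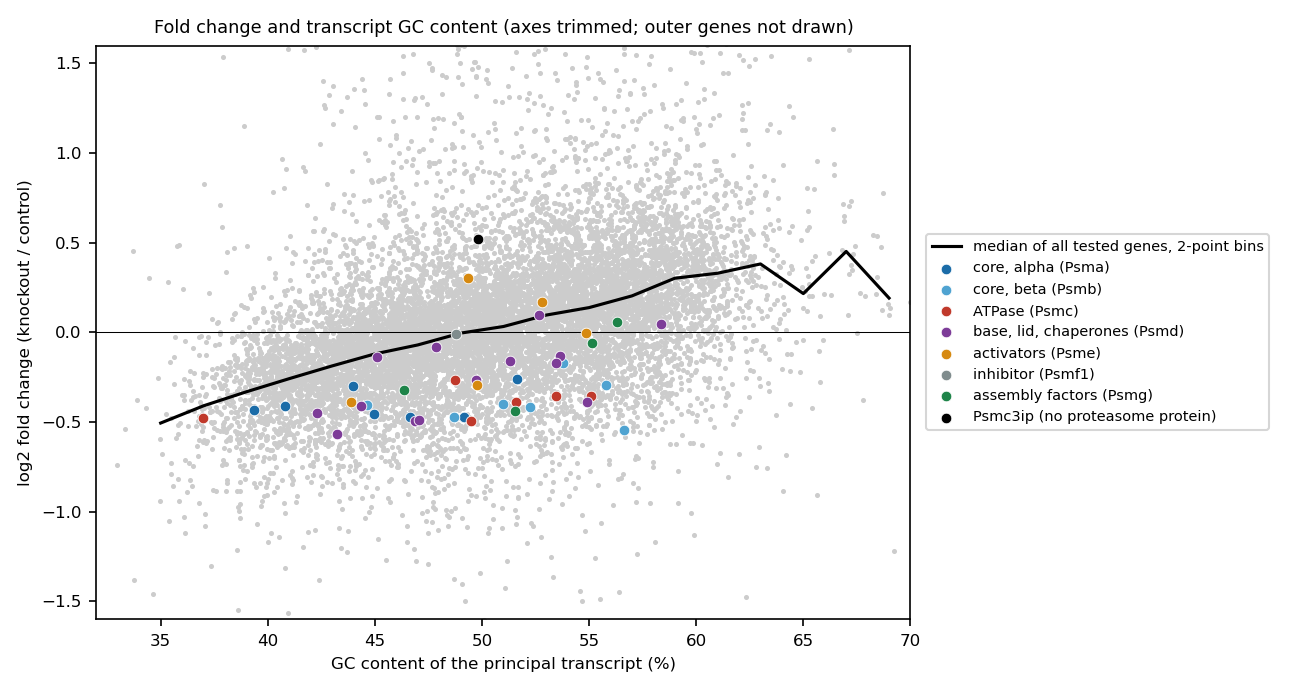
Log2 fold change, knockout over control, against the GC content of the gene's principal transcript. Grey points are the tested genes with a known transcript, the black line is their median in bins of 2 percentage points, and coloured points are the 45 proteasome genes by class. The axes are trimmed and leave out the outermost genes. The line rises over most of the range, and 40 of the 45 coloured points lie below the median of their GC bin as binned in the text.

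Promoter sequences were looked up for the site that MYC proteins bind with Max, the E-box, since the deleted gene encodes such a protein. RefSeq promoter windows (build GRCm38.p6, 250 bases before to 50 after a gene's start) were at hand for 38 of the 45 genes, in 41 windows, 3 genes having 2. Searched on both strands, the E-box CACGTG was in 3 of the 41 windows (7.32%), in 7.15% of all 32851 windows and in 10.02% of the 11961 windows of tested genes. Its variant CACGCG was in 8 windows (19.5%, against 9.27% of all windows and 17.6% of those of tested genes). The core of the antioxidant response element, TGANNNNGC, to which the proteasome's own regulator Nfe2l1 is known to bind, was in 23 windows (56.1%, against 41.3% and 42.4%). These windows belonged to 21 of the 38 genes, and the 2 overlapping windows of Psme2 shared the same match. In 1 place in the member windows, a CACGCG match overlapped a TGANNNNGC match. Of the 13 genes that fell, 11 had a window, and 1 of these held CACGTG, 4 CACGCG and 4 TGANNNNGC. A match describes letters only and does not show that a factor is bound. Of the windows, 3 are shown, 1 for each motif, from genes that fell and whose RefSeq and GENCODE starts coincide: Psme3 for CACGTG, Psmd14 for CACGCG and Psma6 for TGANNNNGC. They are the 250 bases upstream of the start, written 5′ to 3′ on the gene's strand, which is the plus strand for all 3, with matches to any of the motifs in capitals. The windows are chr11:101315963-101316212 for Psme3, chr2:61711444-61711693 for Psmd14 and chr12:55383972-55384221 for the first of the 2 starts of Psma6.
Psme3: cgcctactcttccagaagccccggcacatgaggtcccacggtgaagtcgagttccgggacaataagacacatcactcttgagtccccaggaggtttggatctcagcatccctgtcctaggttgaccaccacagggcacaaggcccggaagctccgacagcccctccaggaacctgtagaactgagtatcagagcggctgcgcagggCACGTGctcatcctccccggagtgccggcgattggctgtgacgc
Psmd14: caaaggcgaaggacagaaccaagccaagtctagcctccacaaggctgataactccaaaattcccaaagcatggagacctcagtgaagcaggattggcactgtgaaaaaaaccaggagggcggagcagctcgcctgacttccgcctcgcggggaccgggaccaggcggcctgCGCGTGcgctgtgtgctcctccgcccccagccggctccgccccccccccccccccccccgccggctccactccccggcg
Psma6: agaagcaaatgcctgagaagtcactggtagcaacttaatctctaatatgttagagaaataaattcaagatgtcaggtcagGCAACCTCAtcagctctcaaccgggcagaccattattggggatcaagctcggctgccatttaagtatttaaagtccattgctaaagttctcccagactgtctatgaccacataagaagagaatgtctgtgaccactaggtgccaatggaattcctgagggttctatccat
With bases counted from the start, negative upstream, the E-box of Psme3 began at -44. The variant in Psmd14, read on the other strand as CGCGTG, began at -79, and the match in Psma6 at -170. The other CACGTG matches were in Psma4, which missed the threshold (adjusted p = 0.053), and in Psmd9, which did not pass (0.63).

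In the core particle, all 14 genes had a fold change below 0 (median log2 -0.41, range -0.54 to -0.17), and 3 fell: Psma3, Psma6 and Psmb7. Of all tested genes, 49.8% were below 0 and 8.51% were called lower. Transcripts of all 14 summed to 619.98, 769.7 and 730.6 CPM in the controls and to 486.3 and 591.1 CPM in the knockouts. Psma6, an alpha subunit (chr12:55384222-55418454, GRCm38), was at 58.6, 70.6 and 71.8 CPM in the controls and at 43.6 and 52.9 CPM in the knockouts. Both knockouts lay below the lowest control, and the log2 fold change was -0.47 (SE 0.12, edgeR adjusted p = 0.041, 1.39-fold lower). Psma3 (chr12:70974621-70996347), whose C-terminus binds several substrates, was at 28.8, 26.6 and 28.2 CPM in the controls and at 19.9 and 22.1 CPM in the knockouts (log2 -0.41, SE 0.11, adjusted p = 0.044). Its controls lay within 3 CPM of each other, apart from both knockouts. Among the other alpha genes, Psma1 stood at 52.7, 58.2 and 60.6 CPM against 42.1 and 50.7 CPM and missed the threshold (log2 -0.30, SE 0.11, adjusted p = 0.094). Psma2, Psma4 and Psma5 had adjusted p-values of 0.065, 0.053 and 0.079, with log2 fold changes of -0.44 to -0.47, and in each the groups did not overlap. Psma7 (log2 -0.26, adjusted p = 0.19) was the alpha gene whose groups overlapped.

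Of the catalytic subunits, Psmb7, which cuts after basic residues, fell, from 63.7, 82.7 and 79.0 CPM to 49.5 and 58.8 CPM (log2 -0.47, SE 0.13, edgeR adjusted p = 0.047; chr2:38588036-38644087). Both its knockouts were below control replicate 1, the lowest control, by less than the controls differed from each other. Exons of Psmb7 overlap Nek6 on the opposite strand over 11.8% of their length. Its log2 fold change was -0.22 with the length and GC trend removed (adjusted p = 0.10). Psmb5, which cuts after hydrophobic residues and is the main target of proteasome inhibitor drugs, had the second largest fold change of the members but did not pass (log2 -0.54, SE 0.21, adjusted p = 0.11). It stood at 21.0, 26.2 and 23.98 CPM in the controls and at 12.2 and 20.3 CPM in the knockouts, so the knockouts were far apart. Psmb6, which cuts after acidic residues, had the highest level per kilobase of the core genes, and was at 70.4, 96.4 and 80.1 CPM against 61.2 and 73.0 CPM. Its groups overlapped (log2 -0.30, adjusted p = 0.17). The non-catalytic subunits Psmb1, Psmb2, Psmb3 and Psmb4 had log2 fold changes between -0.42 and -0.17 and adjusted p-values between 0.069 and 0.51. Of these, Psmb4 was at 70.5, 83.3 and 81.3 CPM in the controls and at 48.3 and 69.2 CPM in the knockouts, and Psmb1 at 64.6, 87.1 and 76.0 CPM against 53.5 and 61.1 CPM. With the length and GC trend removed, 0 core genes were called, and their median log2 fold change was -0.14. DESeq2 called 5 of the 14 lower and limma-voom 2, where they called 9.69% and 7.56% of all genes lower. An unadjusted edgeR p under 0.05 was found for 11 of the 14, against 17.6% of all tested genes on the lower side.

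All 6 ATPase genes had a fold change below 0 (median log2 -0.37), and 4 of them fell, against 49.8% and 8.51% of all tested genes. Psmc1 (chr12:100110154-100123405) was at 96.0, 119.6 and 115.9 CPM in the controls and at 71.3 and 85.7 CPM in the knockouts (log2 -0.49, SE 0.12, edgeR adjusted p = 0.036). Psmc6 (chr14:45329788-45349705) went from 69.4, 87.6 and 85.5 CPM to 58.3 and 57.7 CPM (log2 -0.48, SE 0.11, adjusted p = 0.032). The knockouts of Psmc6 were nearly equal and below every control. Its transcript had the lowest GC content of the members (37.0%), and its log2 fold change was 0.02 with the trend removed. Psmc3 (chr2:91054009-91066369) and Psmc4 (chr7:28041707-28050101), each 1.28-fold lower, were at 105.0, 125.7 and 119.5 CPM against 87.8 and 94.4 CPM and at 101.7, 124.9 and 113.5 CPM against 86.2 and 90.7 CPM (adjusted p = 0.045 and 0.048). These 2 have transcripts of 55.1% and 53.5% GC, and their fold changes with the trend removed were -0.37 and -0.29. Exons of Psmc3 overlap Slc39a13 on the opposite strand over 8.25% of their length. Psmc5, the ATPase gene with the highest level per kilobase, stood at 117.4, 153.2 and 152.2 CPM against 101.9 and 113.2 CPM. The groups did not overlap, but it missed the threshold (log2 -0.39, SE 0.13, adjusted p = 0.069), and Psmc2 had overlapping groups (log2 -0.27, adjusted p = 0.18). Differences between classes were not tested. Scaled by library totals, 1 ATPase gene was called lower (5.29% of all tested genes), and with limma-voom 2 (7.56%). With the trend removed, 3 were (6.1%).

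The Psmd genes were uneven. Of 14, 4 fell and 12 had a fold change below 0, against 8.51% and 49.8% of all tested genes. The median log2 fold change was -0.22. Psmd14, the lid enzyme that cuts the ubiquitin chain from the substrate (chr2:61711694-61800376), showed the largest fall of all members. It was at 61.1, 67.9 and 67.4 CPM in the controls and at 45.4 and 43.0 CPM in the knockouts (log2 -0.57, SE 0.090, edgeR adjusted p = 0.013). The gap between the groups was wider than the spread within either. With the trend removed its fold change was -0.23 (adjusted p = 0.12). Psmd6, another lid subunit (chr14:14112174-14120984), was at 76.4, 84.6 and 84.9 CPM against 51.7 and 65.2 CPM (log2 -0.49, SE 0.11, adjusted p = 0.031). Other lid genes differed less. Psmd3 was at 116.1, 107.5 and 94.9 CPM in the controls and at 109.6 and 109.3 CPM in the knockouts, within the control range (log2 0.04, SE 0.098, adjusted p = 0.78). Psmd11 was at 79.3 to 81.7 CPM in the controls and at 76.5 and 76.3 CPM in the knockouts, a difference of -0.08 on the log2 scale that did not pass although the groups did not overlap (adjusted p = 0.47). Psmd7, Psmd8, Psmd12 and Psmd13 had log2 fold changes from -0.41 to -0.13 and adjusted p-values from 0.092 to 0.40.

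In the base, Psmd1, a large scaffold subunit (chr1:86064387-86139151), was at 253.3, 263.7 and 279.9 CPM in the controls and at 179.1 and 198.1 CPM in the knockouts (log2 -0.49, SE 0.089, edgeR adjusted p = 0.016). It passed in 11 of 14 alternatives, the most of any member, with adjusted p-values from 6e-06 to 0.087, and its fold change was -0.38 with the trend removed. Psmd4, a receptor for ubiquitin chains (chr3:95032694-95042614), was at 88.1, 108.7 and 101.2 CPM against 74.5 and 77.3 CPM (log2 -0.39, SE 0.10, adjusted p = 0.041). Psmd2, the other large scaffold of the base, had a level per kilobase close to that of Psmd1 in the controls (85.9 and 85.4 CPM) and did not pass. Its values were 249.9, 259.6 and 253.6 CPM in the controls and 210.8 and 245.1 CPM in the knockouts (log2 -0.16, SE 0.090, adjusted p = 0.25). The difference between Psmd1 and Psmd2 was not tested. The chaperones of base assembly, Psmd5, Psmd9 and Psmd10, did not pass with edgeR, DESeq2 or limma-voom, and 0 of the 3 had an unadjusted edgeR p under 0.05. Of all tested genes, edgeR called 8.51% lower, and 17.6% were lower at that unadjusted p. Psmd10, also known as gankyrin, was at 8.15 to 8.96 CPM in the controls and at 4.08 and 8.46 CPM in the knockouts, low only in knockout replicate 1. Exons of Psmd9 overlap Gm26745, a noncoding RNA on the opposite strand, over 25.5% of their length, and without a stated strand setting their reads cannot be told apart.

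**Figure D3:**
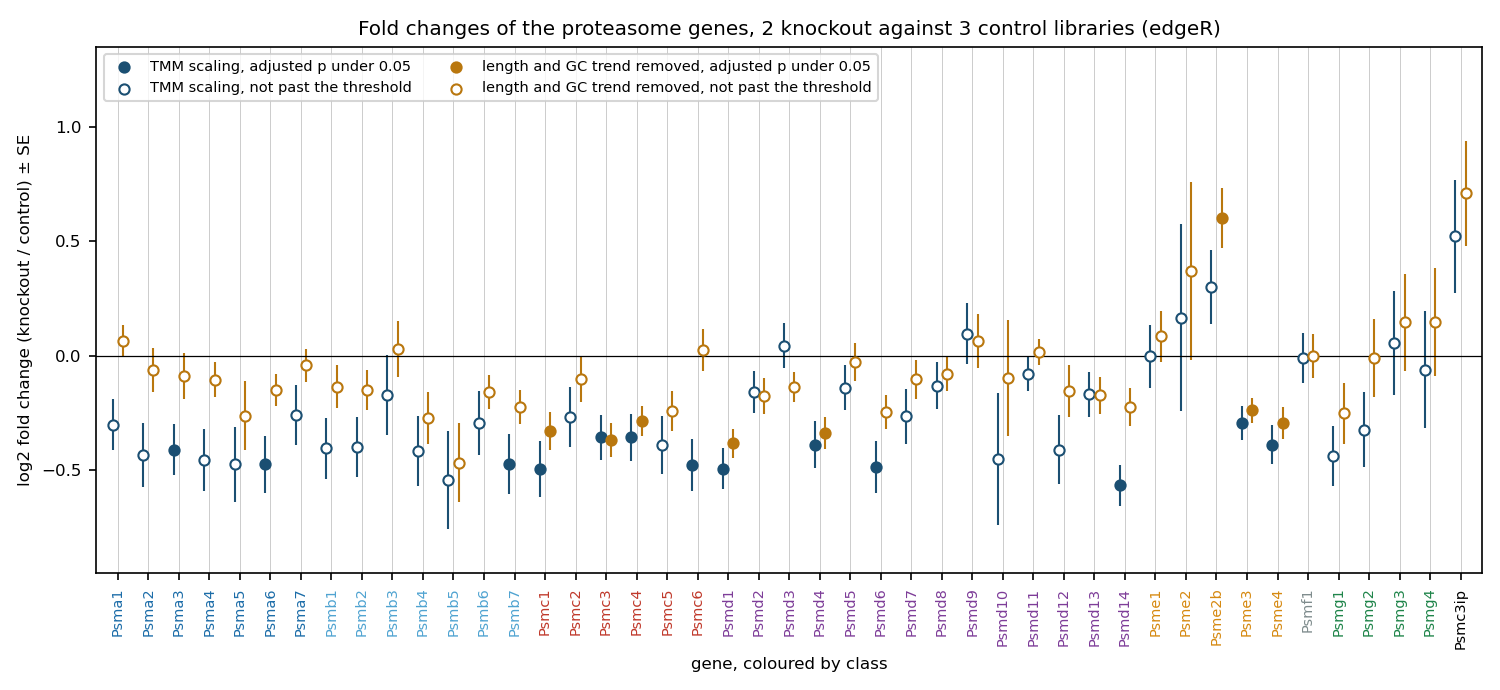
Log2 fold change of each proteasome gene, knockout over control, with its standard error (edgeR, 3 control and 2 knockout libraries). Blue symbols are from TMM scaling and brown symbols after a length and GC trend was taken out of each library, and filled symbols have an adjusted p under 0.05. There are 13 filled blue symbols, all below 0, and 8 filled brown ones, of which that of Psme2b lies above 0, and brown symbols lie nearer to 0 for most core genes.

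Among the activators, Psme3 and Psme4 fell and the 3 PA28 alpha and beta genes did not pass. Of all tested genes, 8.51% were called lower. Psme4, which encodes the nuclear activator PA200 (chr11:30771726-30880361), had the highest CPM of all members, on the longest transcript (6491 bases). It was at 450.8, 481.6 and 470.5 CPM in the controls and at 344.0 and 369.9 CPM in the knockouts (log2 -0.39, SE 0.086, edgeR adjusted p = 0.027). Psme3, the nuclear PA28 gamma (chr11:101316213-101323537), was at 111.2, 108.3 and 111.9 CPM against 88.5 and 91.9 CPM (log2 -0.29, SE 0.075, adjusted p = 0.038). In both genes the controls lay close together and above the knockouts. Psme1 (PA28 alpha) was at 20.7, 23.4 and 22.9 CPM against 19.8 and 24.8 CPM (log2 0.00, SE 0.14), with the groups fully overlapping. Psme2 (PA28 beta) had only 16 to 34 counts in a library, while Psme2b, annotated on another chromosome, had 132 to 209. Their principal transcripts are 99.4% identical over 794 aligned positions, so reads of the 2 genes may be shared or lost, and single values are uncertain. Psme2b was at 10.3, 13.7 and 12.4 CPM against 15.0 and 14.9 CPM (log2 0.30, SE 0.16, adjusted p = 0.22), and 0.60 with the trend removed (adjusted p = 0.032). The inhibitor Psmf1 was at 30.2, 27.4 and 26.6 CPM in the controls and at 26.7 and 29.0 CPM in the knockouts (log2 -0.01, SE 0.11, adjusted p = 0.95).

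Of the core assembly factors, 0 of 4 passed with edgeR, DESeq2 or limma-voom. These tests called 8.51%, 9.69% and 7.56% of all their tested genes lower. An unadjusted edgeR p under 0.05 was found for 1 of the 4, against 17.6% of all tested genes on the lower side. That gene was Psmg1, a chaperone of the alpha ring, at 18.7, 18.0 and 18.0 CPM in the controls and 12.6 and 14.3 CPM in the knockouts (log2 -0.44, SE 0.13, adjusted p = 0.056). Its partner Psmg2 was at 15.5, 13.9 and 13.5 CPM against 10.02 and 12.8 CPM (log2 -0.32, SE 0.17, adjusted p = 0.20). In both genes the knockouts lay below every control. Psmg3 and Psmg4, which form a second chaperone pair, were between 3.49 and 5.31 CPM in all libraries, with overlapping groups. Psmc3ip, which the symbol rule also takes in, encodes a meiotic recombination factor and no proteasome protein. It was at 3.68, 3.87 and 4.86 CPM against 5.01 and 6.89 CPM, its exons overlap Mlx on the opposite strand over 21.2% of their length, and it did not pass (log2 0.52, SE 0.25, adjusted p = 0.17).

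Levels of different genes were compared as CPM per kilobase of the principal transcript. In the controls the highest levels were Psmc5 (107.1 ± 15.5, SD, n = 3) and Psmb6 (103.1 ± 16.5), which did not differ beyond their spread, followed by Psmd2 (85.9 ± 1.65) and Psmd1 (85.4 ± 4.31). By class, the median control level was 43.1 for alpha, 57.8 for beta, 70.4 for ATPase and 45.1 for Psmd genes, with 10.7 for core assembly factors. The base chaperones Psmd5, Psmd9 and Psmd10 were at 6.005 to 7.32, below every Psmd gene of the lid and base (28.3 to 85.9). Among core genes, which enter the barrel in equal numbers, the range was from 9.81 ± 0.4004 (Psma3) to 103.1 (Psmb6). Psma3 and Psma2 have principal transcripts of 2846 and 2911 bases, against 914 to 1239 bases for the other alpha genes, so their level per kilobase depends on which transcript the lens uses. A low level was not limited to them, as Psma5 stood at 10.05 ± 0.07 in the controls on a transcript of 1239 bases. In the knockouts the class medians were 31.4, 43.9, 52.5 and 34.2 for alpha, beta, ATPase and Psmd genes. All 4 medians were lower than in the controls, and the ATPases again had the highest.

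**Figure D4:**
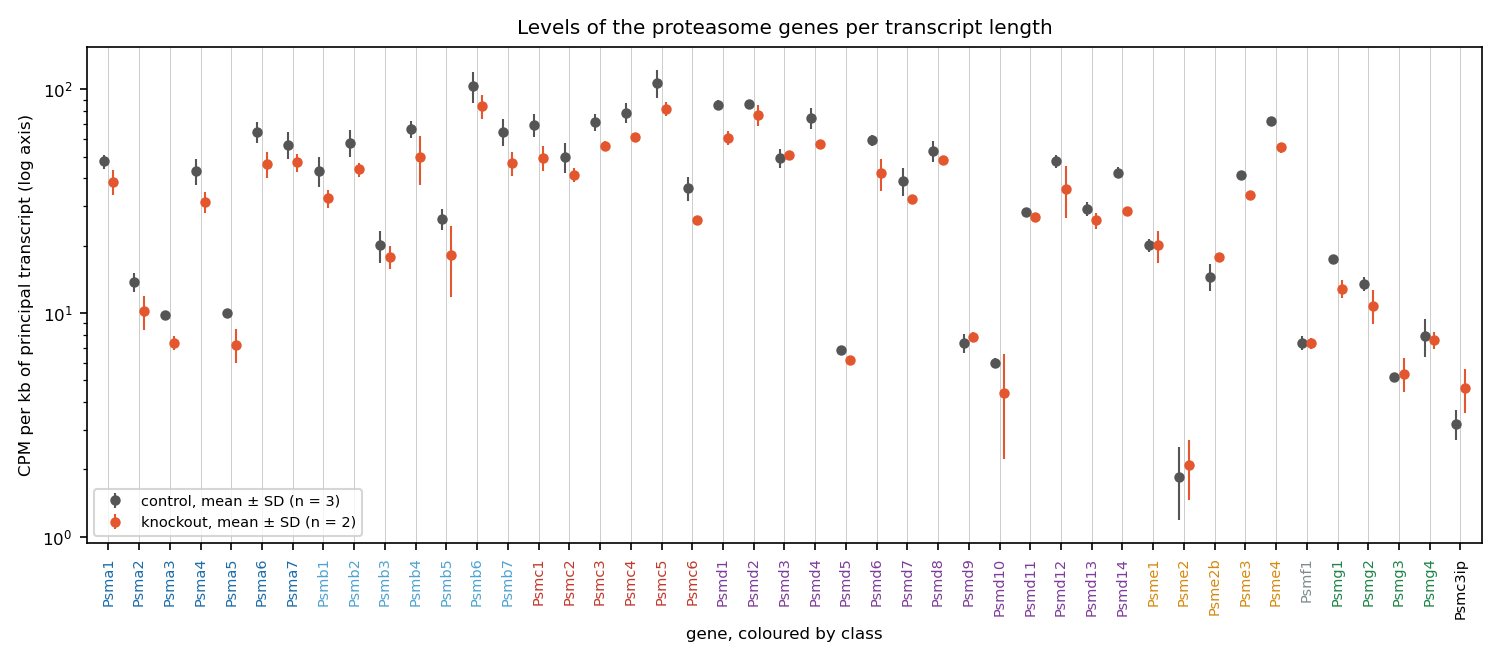
Level of each proteasome gene per kilobase of its principal transcript, on a log axis, as mean ± SD over 3 control libraries (grey) and 2 knockout libraries (orange). Core, ATPase, lid and base genes lie mostly between 20 and 107, and base chaperones, Psmf1 and the core assembly factors below 20. Orange points lie below grey ones for most genes.

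Other genes of the pathway were taken from lists chosen with earlier results of these data known. Of 6 tested proteasome proteins without a Psm name, 2 fell and the other 4 were below 0 without passing (median log2 -0.43). Of all tested genes, 8.51% were called lower and 49.8% were below 0. Pomp, the chaperone that matures the core, was at 46.9, 68.2 and 60.9 CPM in the controls and at 31.4 and 42.6 CPM in the knockouts (log2 -0.66, SE 0.18, edgeR adjusted p = 0.045). Usp14, a deubiquitinase bound to the base, was at 84.1, 76.0 and 83.4 CPM against 60.0 and 61.9 CPM (log2 -0.41, SE 0.084, adjusted p = 0.022). Both had their knockouts below every control, and neither passed with the trend removed (adjusted p = 0.071 and 0.43). In that fit the median of the 6 was -0.23, and Sem1 lay above 0 (log2 0.095, adjusted p = 0.71). In each of the next 5 lists 1 gene fell, a count to be read against the 8.51% of all tested genes called lower. Of 6 ubiquitin and activating enzyme genes, the enzyme Uba6 fell (log2 -0.44, adjusted p = 0.023), and the ubiquitin gene Ubb had a log2 fold change of 0.09 (adjusted p = 0.80). Of 6 shuttle factors that carry substrates to the proteasome Rad23b fell (log2 -0.42, adjusted p = 0.041), and of 7 genes for the unfoldase p97 and its adaptors Faf1 fell (log2 -0.36, adjusted p = 0.026). Vcp, which encodes p97 itself, was at the threshold (log2 -0.29, adjusted p = 0.052). With the trend removed, Vcp (log2 -0.29, adjusted p = 0.040) and Faf1 (log2 -0.32, adjusted p = 0.023) passed. In that fit Uba6 (log2 -0.09, adjusted p = 0.35) and Rad23b (log2 -0.34, adjusted p = 0.063) did not.

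Of 8 genes for the transcriptional control of the proteasome, 1 fell and 0 rose, 1 having an unadjusted edgeR p under 0.05 and a fold change above 0. That gene was Nfe2l1, the factor that raises proteasome genes when proteasome activity is low, at 226.2, 204.7 and 204.2 CPM in the controls and at 242.6 and 256.8 CPM in the knockouts (log2 0.24, SE 0.085, adjusted p = 0.086), and at 0.01 on the log2 scale with the trend removed. Nfe2l2, the related factor of the oxidative stress response, fell from 63.6, 66.3 and 61.9 CPM to 47.9 and 52.1 CPM (log2 -0.35, SE 0.086, adjusted p = 0.034). Of 8 known targets of Nfe2l2, Slc7a11, a cystine transporter, fell (log2 -0.61, SE 0.16, adjusted p = 0.041), to 145.4 and 219.0 CPM in knockout replicates 1 and 2, and the other 7 did not pass. With the trend removed, neither Nfe2l2 (log2 -0.20, adjusted p = 0.10) nor Slc7a11 (log2 -0.45, adjusted p = 0.083) passed. The immunoproteasome subunit Psmb10, which is not one of the 45, had 19 to 36 counts in a library and did not pass (log2 -0.46, SE 0.37, adjusted p = 0.40). Psmb8, Psmb9 and Psmb11 were looked up too and had no row in the count table. The 7 genes called in these lists each had an adjusted p above the threshold in some alternative, with a highest value between 0.15 and 0.60 over the 14 tried.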

How the data were processed

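RNA of embryonic day 14 mouse lenses was measured in 3 control and 2 N-myc knockout libraries, grouped by their titles. The deposited table holds raw counts, with gene symbols as row names, per the file headers. Per the submitters' processing notes, the tools were HTSeq 0.6.1, DESeq2, TopHat2 2.0.13, Cufflinks 2.2.1 and Trim Galore 0.3.7, and mm10 was the build; which did what is not recorded there. No source used here gives the annotation or the strand setting. The members, gene lists and tests were chosen with earlier results of these data known.

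Counts were tested in R 4.3.3 with edgeR 4.0.16 (filterByExpr with a minimum count of 10, TMM, glmQLFTest, no covariate). Benjamini-Hochberg adjustment ran over 12035 genes, and the threshold was 0.05. The filter removed 335 symbols. The SE is the log2 fold change over the square root of F. Alternatives used DESeq2 1.42.0, limma-voom (limma 3.58.1), other scalings, no filter, a replicate block, single libraries left out, and an offset from each library's loess trend (span 0.3) on length and GC content of the principal transcript in GENCODE vM21 (GRCm38), known for 98.1% of tested genes and all 45 members. Gene positions came from the same release, by symbol. Exons of 13 members overlap another gene, and 4 pseudogenes carry Psm names there, so reads may be shared. Promoters came from RefSeq. Libraries of a group differed by more than sampling noise (chi-square over degrees of freedom 9.98 to 23.4), so each counted as 1 sample.

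On counts simulated for these 12035 genes in this comparison, with 200 genes changed, edgeR recovered 36.8% of 1.5-fold and 79.0% of 2-fold changes, and false calls averaged 4.4. In the simulation, 1.5-fold changes were thus often missed. All members here changed by less than that, a size that was not simulated. The simulated counts were drawn independently per gene with no GC trend, and fewer genes changed than were called in the data. The simulated recovery and false calls thus do not measure those in the data. Named genes were Mycn, the called members, and in each class the 2 with the smallest adjusted p and the 2 with the highest CPM. Psmd3, Psme2b and other members named outside this rule were chosen after their values were seen. Of the other lists, called genes were named, or 2 as values; Ubb, Vcp and Nfe2l1 were added after their values were seen.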

Additional observations from a re-analysis of the deposited data

How the results depend on the processing

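The calls are near the threshold, and most 1.5-fold changes were missed in the simulation of 3 against 2 libraries. With DESeq2 size factors and with no filter on low counts, edgeR called the same 13 members. DESeq2's own test called these and 3 more (5 core genes), and limma-voom called 10 of them (2 ATPase genes). The cause was not tested for any of the differences given here.

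With library totals only, 637 genes were lower and 1511 higher. The members called lower were then 5 (core 0, ATPase 1, activators 1), the activators' median log2 fold change was 0.078, and signs reversed for Psmd11 (0.0044), Psme1 (0.078), Psmf1 (0.073) and Psmg4 (0.024). With the length and GC trend removed, 459 genes were higher, 7 members were lower (core 0, Psmd 2) and 1 activator was higher. The median was -0.14 over the members, 0.085 over the activators and 0.068 over the assembly factors, and signs reversed for Psma1 (0.066), Psmb3 (0.028), Psmc6 (0.025), Psmd11 (0.017), Psmd3 (-0.14), Psme1 (0.085) and Psmg4 (0.15). With the longest transcript in place of the principal one, an alternative chosen after seeing the data, 486 genes were higher, 7 members lower (core 0, Psmd 2) and 1 activator higher. The medians were -0.11 over the members and 0.024 over the assembly factors, with reversed values for Psma1 (0.063), Psmb3 (0.0036), Psmd11 (0.25), Psmd3 (-0.10) and Psmg4 (0.15).

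The groups share replicate numbers, but the labels tie no libraries together. Deviations of same-numbered libraries from their group means correlated at -0.093 and 0.0073 across genes. Those of differently numbered libraries ran from -0.10 to 0.10. With 2 knockouts their deviations mirror each other, so the values come in pairs of opposite sign. With the number as a replicate block, all genes called lower were 522 and all genes called higher 473, 6 members were lower (ATPase 1, activators 0), and Psmd3 (-0.029) and Psme1 (0.011) reversed. With the replicate block and the trend removed together, all genes called lower were 400 and all genes called higher 255, and 1 member was lower (core 0, ATPase 0, Psmd 1, activators 0). The median was then -0.12 over the members and 0.12 over the activators, with reversed values for Psma1 (0.079), Psmb3 (0.016), Psmc6 (0.0039), Psmd11 (0.014), Psmd3 (-0.18), Psme1 (0.12) and Psmg4 (0.027).

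With 1 library left out at a time, all genes called lower ranged from 17 to 1291 and all genes called higher from 21 to 1426. Members called lower ranged from 0 to 18, core genes from 0 to 9, ATPase genes from 0 to 6, Psmd genes from 0 to 5 and activators from 0 to 2, and the members' median from -0.43 to -0.19. Signs reversed for Psmd3 (-0.021 to 0.12), Psme1 (-0.18 to 0.15), Psme2 (-0.18 to 0.50), Psmf1 (-0.072 to 0.050), Psmg3 (-0.13 to 0.22) and Psmg4 (-0.19 to 0.087).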
